A study of Bos taurus with 8 samples.

Results

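bta-miR-144, bta-miR-451, bta-miR-486 and bta-miR-185 are miRNAs known from maturing red cells, and they are described here in cattle plasma exosomes. They were chosen by name, as 4 of the 744 bovine miRNAs on the array, and all 4 carried the detection flag on all 8 arrays, as did 143 miRNAs in all. bta-miR-144 and bta-miR-451 come from 1 locus and were compared, probe by probe and month by month, with bta-miR-486 and bta-miR-185, which are encoded elsewhere.

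The animals were Japanese Shorthorn steers in the second or the third year of life, raised on grass and kept either on pasture or in a barn from 0 to 4 mo. Exosomes, small vesicles shed by cells, were spun out of EDTA plasma in an ultracentrifuge, and for each feeding group at 0, 1, 2 and 4 mo the RNA of 3 steers was pooled and put on 1 array. There is thus 1 array for each label and month and no replicate error, and the 4 arrays of a label are successive pools from the same group of steers, not independent samples. All 8 arrays lay on 1 slide, with the label following the slide column and the month the slide row, so that position and group cannot be told apart. The error given with a signal is the scanner software's estimate for 1 array, which is not the spread of its spots. For the members it was between 7.12% and 9.71% of the signal.

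The feeding groups are named by the deposited labels, housed and grazing. In the authors' own listing of the array values these names are exchanged. The signals of all 4 members on every array labelled housed agreed within 1% with a column that the listing gives as grazing, and those on every array labelled grazing with a column of the other group. Every direction below therefore opposes the authors' reading of the same arrays, and is reversed if their listing is right.

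miRNAs are short RNAs that guide Argonaute proteins to matching stretches of messenger RNA and lower the output of that message. The locus of miR-144 and miR-451 is switched on by the red-cell factor GATA1, and miR-451 is matured by Argonaute 2 without the enzyme Dicer that cuts most other miRNA precursors. Red cells lose their nuclei but keep such miRNAs, which is why these are commonly read in plasma as RNA of red-cell origin. miR-486 lies in the gene of ankyrin 1, a protein of the red-cell and muscle membrane skeleton, and has been counted both as a red-cell and as a muscle miRNA. miR-185 is likewise found in red cells.

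In the gene order of the RefSeq assembly ARS-UCD2.0, MIR451 and MIR144 were next to each other, between ERAL1 and FLOT2, and neither fell within another gene. MIR486 lay within the span of ANK1 and MIR185 within that of TANGO2, both protein-coding, with DGCR8 as the next gene after MIR185. The exon or intron was not analysed here.

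Each member was read by 2 probes of 20 spots each, and since every statement below rests on these probes, their sequences are shown, 5′ to 3′. The longer probe is the shorter one with 1 base added at its 3′ end, and the capital marks that base.
bta-miR-144: ctagtacatcatctatactgtA
bta-miR-451: aaactcagtaatggtaacG
bta-miR-486: ctcggggcagctcA
bta-miR-185: tcaggaactgcctttcT

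The miRNA stretch that a longer probe pairs with is its reverse complement, written with T for U. It is shown because the stretch sets how specific each signal can be.
bta-miR-144: tacagtatagatgatgtactag
bta-miR-451: cgttaccattactgagttt
bta-miR-486: tgagctgccccgag
bta-miR-185: agaaaggcagttcctga

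On UMD_3.1, the build of the array design, the longer probes were placed at chr19:20797072-20797092 for bta-miR-144, chr19:20796880-20796897 for bta-miR-451, chr27:36261858-36261870 for bta-miR-486 and chr17:74967085-74967100 for bta-miR-185. The design writes the first 3 from the higher to the lower position and the probe of bta-miR-185 from the lower to the higher. Between the placements of miR-451 and miR-144 lay 174 bases of chromosome 19. Each placement spans 1 position fewer than the probe has letters. The longest run that a member's probe shared with any of the 1609 probes of the other 740 miRNAs was 7 to 9 bases, and no probe of a member was identical to another miRNA's. The probes differ widely in base composition. The longer probe held 31.8% G and C for bta-miR-144, 36.8% for bta-miR-451, 47.1% for bta-miR-185 and 71.4% for bta-miR-486, whose probe has 14 bases.

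Levels are given first as the total signal of the scanner software and then as the signal over the 90th percentile of its array, on the log2 scale (scaled log2 signal). At 0, 1, 2 and 4 mo that percentile was 109, 83.2, 50.7 and 82.5 labelled housed and 40.7, 31.2, 56.1 and 34.2 labelled grazing. Except at 2 mo, the arrays labelled grazing were thus dimmer as a whole, which unscaled signals include. Probes bind with different strength, so a level is compared between arrays and never between miRNAs.

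bta-miR-144 gave signals of 194, 245, 159 and 318 labelled housed, in the order of 0, 1, 2 and 4 mo, and of 59.4, 50.7, 52.5 and 45.0 labelled grazing. Its scaled log2 signal was 0.83, 1.56, 1.65 and 1.95 labelled housed and 0.55, 0.70, -0.098 and 0.40 labelled grazing. The 3 later arrays labelled housed were the highest of the 8, and the arrays labelled housed 0 mo and grazing 1, 0 and 4 mo followed one another at steps within their error estimates. The array labelled grazing 2 mo stood below all others.

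bta-miR-451 gave signals of 2399.5, 2414, 1634 and 3264 labelled housed and 807, 697, 739 and 638 labelled grazing. Its scaled log2 signal was 4.46, 4.86, 5.01 and 5.31 labelled housed and 4.31, 4.48, 3.72 and 4.22 labelled grazing. The order of the arrays was nearly that of bta-miR-144. The 3 later arrays labelled housed were again highest, the array labelled grazing 2 mo again lowest, and the 4 arrays between them followed one another at steps within the error estimates.

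bta-miR-185 gave signals of 129.6, 127, 98.8 and 158 labelled housed and 47.4, 41.1, 51.5 and 44.7 labelled grazing. Its scaled log2 signal was 0.25, 0.61, 0.96 and 0.94 labelled housed and 0.22, 0.40, -0.12 and 0.39 labelled grazing. The later arrays labelled housed were above the later arrays labelled grazing, as for the pair from the shared locus, and the labels were level at 0 mo.

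bta-miR-486 gave signals of 259, 227, 197 and 311 labelled housed and 101, 95.3, 107 and 119 labelled grazing. Its scaled log2 signal was 1.25, 1.45, 1.96 and 1.92 labelled housed and 1.32, 1.61, 0.93 and 1.80 labelled grazing. Here the labels overlapped. The array labelled grazing 4 mo followed the arrays labelled housed 2 and 4 mo at a step within the error estimate, and the array labelled grazing 1 mo stood above the array labelled housed 1 mo by slightly more than it.

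**Figure D1:**
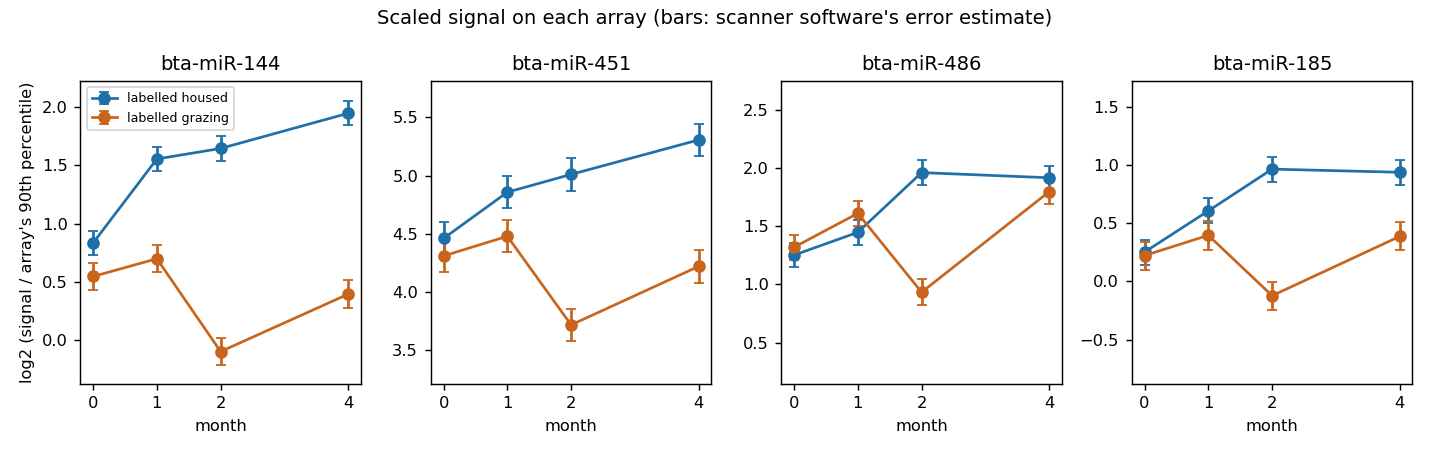
Scaled log2 signal of the 4 miRNAs against month, 1 panel each with axes of equal span, for the arrays labelled housed (blue) and grazing (orange); bars are the scanner software's error estimate of 1 array. The lines part at the later months for bta-miR-144, bta-miR-451 and bta-miR-185, and for bta-miR-486 they are apart mainly at 2 mo.

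Taken month by month, the array labelled grazing minus the array labelled housed was, for bta-miR-144, -0.29, -0.86, -1.74 and -1.55 in the order of 0, 1, 2 and 4 mo, with error estimates of 0.15 or 0.16. The signal labelled housed was thus 1.22, 1.81, 3.35 and 2.93 times that labelled grazing, and at each later month the gap was above 2 error estimates. For bta-miR-451 the difference was -0.15, -0.38, -1.29 and -1.09, with an error estimate of 0.20, so that it was within the error at 0 mo and above 2 error estimates at 2 and 4 mo. For bta-miR-185 it was -0.029, -0.21, -1.09 and -0.55, with an error estimate of 0.16. For bta-miR-486 it was 0.068, 0.16, -1.03 and -0.12, with an error estimate of 0.15, and 2 mo was the only month at which it passed 2 error estimates. On this scale all 4 members had their largest difference at 2 mo, but not on others, which were added after these values were seen. Without scaling between arrays bta-miR-144 was at -1.71, -2.27, -1.60 and -2.82 and bta-miR-451 at -1.57, -1.79, -1.14 and -2.35, so that 2 mo had the smallest gap and 4 mo the largest. Scaled to the summed signal of the detected miRNAs, the gap was largest at 4 mo for bta-miR-144 (-2.00), bta-miR-451 (-1.54) and bta-miR-185 (-1.002) and at 2 mo for bta-miR-486 (-0.91).

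Relative to the 0 mo array of the same label, all 4 members were higher on average at the later months labelled housed. The mean log2 change was 0.88 for bta-miR-144 (error estimate 0.12), 0.60 for bta-miR-451 (0.16), 0.58 for bta-miR-185 (0.12) and 0.52 for bta-miR-486 (0.12). Labelled grazing, it was -0.21 (0.13), -0.17 (0.16), -0.0022 (0.14) and 0.13 (0.13) in the same order. The array labelled grazing 2 mo was below its 0 mo array for all 4, by 0.64, 0.59, 0.34 and 0.39 in that order. Without scaling between arrays, the mean changes labelled housed were 0.25 for bta-miR-144 and -0.034, -0.047 and -0.11 for bta-miR-451, bta-miR-185 and bta-miR-486. The direction labelled housed thus rests on the scaling for those 3. The value at 2 mo labelled grazing rests on it as well. Without scaling it was -0.18 for bta-miR-144 and -0.13 for bta-miR-451, and above the 0 mo array by 0.12 for bta-miR-185 and 0.078 for bta-miR-486, with the percentile at 56.1 on the 2 mo array and 40.7 on the 0 mo array.

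The later months were compared between the labels by limma over the 143 miRNAs, with month as a block. bta-miR-144 was lower labelled grazing by a log2 difference of -1.38 (SE 0.22, adjusted p 0.00108), the lowest of all 143. bta-miR-451 was lower as well, at -0.92 (SE 0.22, adjusted p 0.0144), the third from the lowest. bta-miR-185, at -0.62 (SE 0.21, adjusted p 0.0562), and bta-miR-486, at -0.33 (SE 0.23, adjusted p 0.326), did not pass 0.05. Of the 143 miRNAs 7 were called lower, 4.90%, so that the members made up 2 of 7. In 3 of the 4 members, bta-miR-486 being the exception, all later arrays labelled grazing lay below all later arrays labelled housed, as they did for 23.8% of the 143 miRNAs. The median difference was -0.77 over the members and -0.0094 over all 143. Of the 16 miRNAs called in either direction 43.8% were lower, a share that ran from 6.06% to 100% under other scalings.

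These calls rest on 2 residual degrees of freedom for each miRNA, to which limma adds variance information shared over all 143. Their p-values describe the spread over 3 months of these pools, not that between steers. Each call is lost when certain months are left out. Without the 2 mo arrays the difference was -1.20 for bta-miR-144 (adjusted p 0.0734) and -0.73 for bta-miR-451 (0.126), and without the 4 mo arrays -1.30 and -0.84 (0.345 for both). Without the 1 mo arrays it was -1.65 for bta-miR-144 (0.0130) and -1.19 for bta-miR-451 (0.100). For bta-miR-486 the difference without the 2 mo arrays was 0.022, against -0.33 with them. With quantile normalization the adjusted p was 0.0563 for bta-miR-144 and 0.0549 for bta-miR-451, with let-7g as the reference 0.0275 and 0.0881, and with the 173 miRNAs detected on at least 4 arrays 0.109 and 0.138. bta-miR-185 was called with the 90th percentile over the miRNAs detected on all arrays (0.0318) and with a mean-variance trend (0.00451).

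In the change from 0 mo, the difference between the labels was -1.10 for bta-miR-144 (SE 0.43, adjusted p 0.389), -0.77 for bta-miR-451 (SE 0.44, 0.802), -0.59 for bta-miR-185 (SE 0.43, 0.802) and -0.40 for bta-miR-486 (SE 0.46, 0.961). By limma 0 of the 4 were called, where 1.40% of the 143 miRNAs were. At an unadjusted p under 0.05 stood 1 of the 4, bta-miR-144, and 9 of the 143.

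**Figure D2:**
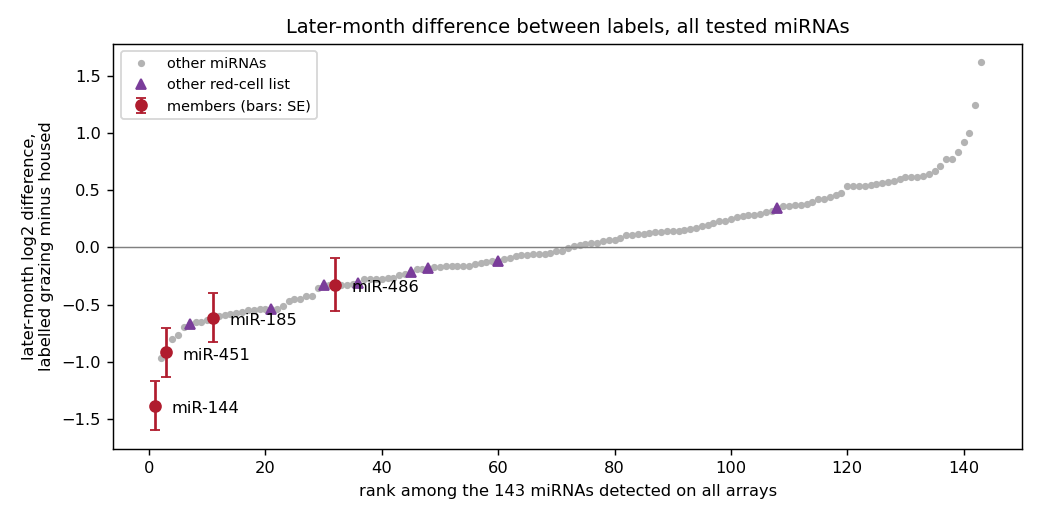
Later-month log2 difference, labelled grazing minus labelled housed, of the 143 tested miRNAs in rank order, with the 4 members (red, bars are the standard error of limma) and the other red-cell miRNAs (purple triangles). bta-miR-144 is the lowest point, and the other red-cell miRNAs lie between -0.67 and 0.34.

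Scaling by 1 factor moves all miRNAs of an array together, so the members were also set against the median of the 143. Under the 90th percentile and 6 other ways to divide each array by 1 factor, no scaling included, that median of the later-month difference ranged from -0.85 to 0.32. Relative to it, where the factor cancels by construction, bta-miR-144 stood at -1.38, bta-miR-451 at -0.91, bta-miR-185 at -0.61 and bta-miR-486 at -0.32. Quantile normalization, which is no single factor, gave -1.23, -1.003, -0.54 and -0.13 in the same order, and normexp background correction -1.21, -1.15, -0.53 and -0.53.

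A ratio of members on the same array needs no scaling between arrays. The log2 ratio of bta-miR-144 over bta-miR-451, the pair from the shared locus, was -3.63, -3.30, -3.36 and -3.36 labelled housed at 0, 1, 2 and 4 mo. Labelled grazing it was -3.76, -3.78, -3.82 and -3.83, at each later month within 0.062 of its 0 mo value. Its level reflects probe strength and only its differences are read. Between the means of the labels the difference was -0.38, the arrays of the labels did not overlap, and labelled housed the 0 mo array had the lowest ratio.

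The log2 ratio of bta-miR-144 over bta-miR-486 was -0.42, 0.11, -0.31 and 0.033 labelled housed and -0.77, -0.91, -1.03 and -1.40 labelled grazing. That over bta-miR-185 was 0.58, 0.95, 0.68 and 1.01 labelled housed and 0.33, 0.30, 0.026 and 0.0096 labelled grazing. bta-miR-144 was thus lower on the arrays labelled grazing against both separately encoded miRNAs, by -0.88 and -0.64 between the means of the labels, without overlap. These means include the 0 mo arrays, where both ratios were already lower labelled grazing. The labels did not overlap either for bta-miR-451 over bta-miR-486 or for bta-miR-486 over bta-miR-185. How many ratios of all miRNA pairs lack overlap was not computed, so its absence is not read as particular to these.

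The log2 ratio of bta-miR-451 over bta-miR-486 was 3.21, 3.41, 3.05 and 3.39 labelled housed and 2.99, 2.87, 2.79 and 2.42 labelled grazing, a difference of -0.50. That over bta-miR-185 was 4.21, 4.25, 4.05 and 4.37 against 4.09, 4.08, 3.84 and 3.84, a difference of -0.26, and here the labels overlapped. The ratio of bta-miR-486 over bta-miR-185 was 1.00, 0.84, 1.00 and 0.98 against 1.10, 1.21, 1.06 and 1.41, higher labelled grazing by 0.24. With both members of each kind averaged, the shared-locus pair over the separately encoded pair differed by -0.57 between the labels (SD over the months 0.18 labelled housed and 0.20 labelled grazing). With normexp background correction of the spots in place of the software's signal, the difference was -0.020 for bta-miR-144 over bta-miR-451, -0.55 over bta-miR-486, -0.57 for bta-miR-451 over bta-miR-185, -0.039 for bta-miR-486 over bta-miR-185 and -0.56 for the pairs. With quantile normalization it was -0.060 for bta-miR-144 over bta-miR-451. The gap within the shared-locus pair thus changed with the background correction and with quantile normalization, whereas that between the pairs stayed within its SD. These means include the 0 mo arrays. There the log2 ratio of the shared-locus pair over the separately encoded pair was already lower labelled grazing, at 1.66 against 1.90 labelled housed. In the mean change from 0 mo the labels differed by -0.44 for the pairs (error estimate 0.19). Labelled housed, the change of this ratio was 0.28, -0.030 and 0.30 at 1, 2 and 4 mo. No test was made, since exchanging the labels within 4 months cannot give a p below 0.125.

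From 0 mo, the ratio of bta-miR-144 over bta-miR-486 differed by 0.53, 0.10 and 0.45 at 1, 2 and 4 mo labelled housed and by -0.14, -0.26 and -0.63 labelled grazing. Between the labels this mean change differed by -0.70 (error estimate 0.25), that of bta-miR-144 over bta-miR-185 by -0.51 (0.26), and that over bta-miR-451 by -0.33 (0.29). All 3 ratios of bta-miR-144 were up at each later month labelled housed and down at each labelled grazing. Of the 12 ordered pairs of members 3 had this pattern, all with bta-miR-144 on top, against 4.38% of all ordered pairs of the 143 miRNAs. Against the other 142 miRNAs, bta-miR-144 had it in 79, more than any other of the 143, bta-miR-451 in 65, bta-miR-185 in 28 and bta-miR-486 in 0. For bta-miR-144 over bta-miR-451 the changes labelled grazing were -0.016, -0.052 and -0.062, far within the error estimate of up to 0.26.

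**Figure D3:**
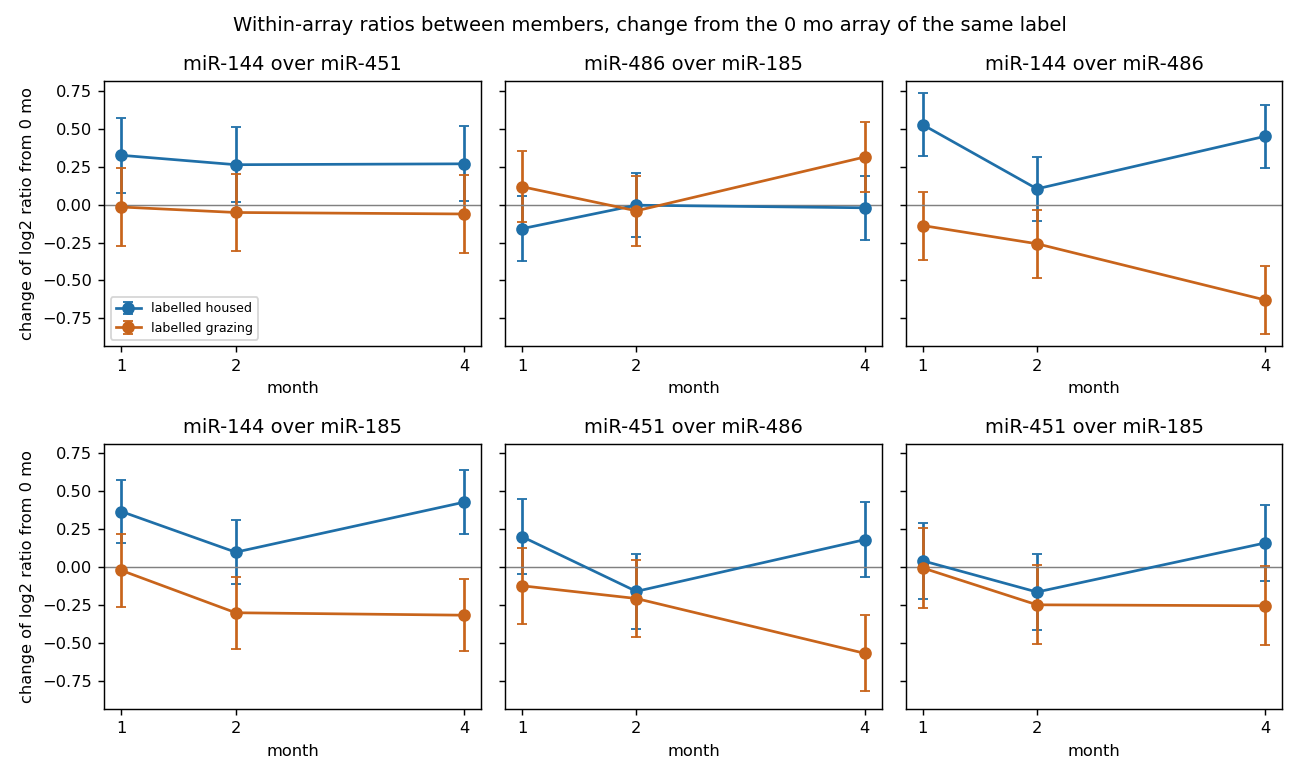
Change from 0 mo of the 6 within-array log2 ratios between members against month, labelled housed (blue) and grazing (orange); bars combine the error estimates of both miRNAs on both arrays. The labels are on opposite sides of 0 at every later month in the 3 panels with bta-miR-144 on top, by least against bta-miR-451.

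Both probes of a member gave nearly the same differences. The mean later-month difference was -1.40 by the shorter and -1.37 by the longer probe of bta-miR-144, -0.91 and -0.92 for bta-miR-451, -0.63 and -0.61 for bta-miR-185, and -0.36 and -0.31 for bta-miR-486. In each of the 4 members all 6 changes from 0 mo and all 4 differences between labels had the same sign by both probes. The largest gap between the probes was 0.14 log2 units, for bta-miR-185 at 4 mo, where the shorter probe gave -0.47 and the longer -0.61. Gaps passed 2 spot errors in 2 of 4 differences between labels for bta-miR-185. They did so in 2 of 6 changes from 0 mo for bta-miR-451 and 1 of 6 for bta-miR-486. The probes of a member differ by 1 base, so the 2 are not independent readings. All spots of these probes were well above background on every array.

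The probes differed in brightness by far the most for bta-miR-451. Its 19-base probe, with the added G, was 27.0 to 30.4 times as bright as the 18-base probe over the 8 arrays, and gave 96.4% to 96.8% of the total signal, which thus rests on 1 probe. The ratio of longer to shorter was 1.08 to 1.16 for bta-miR-144, 1.55 to 1.67 for bta-miR-486 and 1.43 to 1.62 for bta-miR-185. Over the 8 arrays the log2 of these ratios had an SD between 0.039 and 0.056. The 20 spots of the bright bta-miR-451 probe spread on the 0 mo array labelled housed with an SD of 9.62% of their mean, 8196, against 1.36% to 2.93% on the other arrays. The software's error estimate for this probe did not follow that spread. It was 233 on a total of 2317 on the array labelled housed 0 mo, and 316 on 3160 on that labelled housed 4 mo, where the SD was 1.36%.

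The ratio patterns held by probe to different degrees. bta-miR-144 over bta-miR-486 was up at every later month labelled housed and down at every one labelled grazing in 4 of 4 pairings of their probes, and bta-miR-144 over bta-miR-185 in 2 of 4. For bta-miR-144 over bta-miR-451 it was 1 of 4. All 4 pairings of the latter put the ratio up labelled housed, by 0.23 to 0.40, whereas labelled grazing the changes lay between -0.13 and 0.10.

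**Figure D4:**
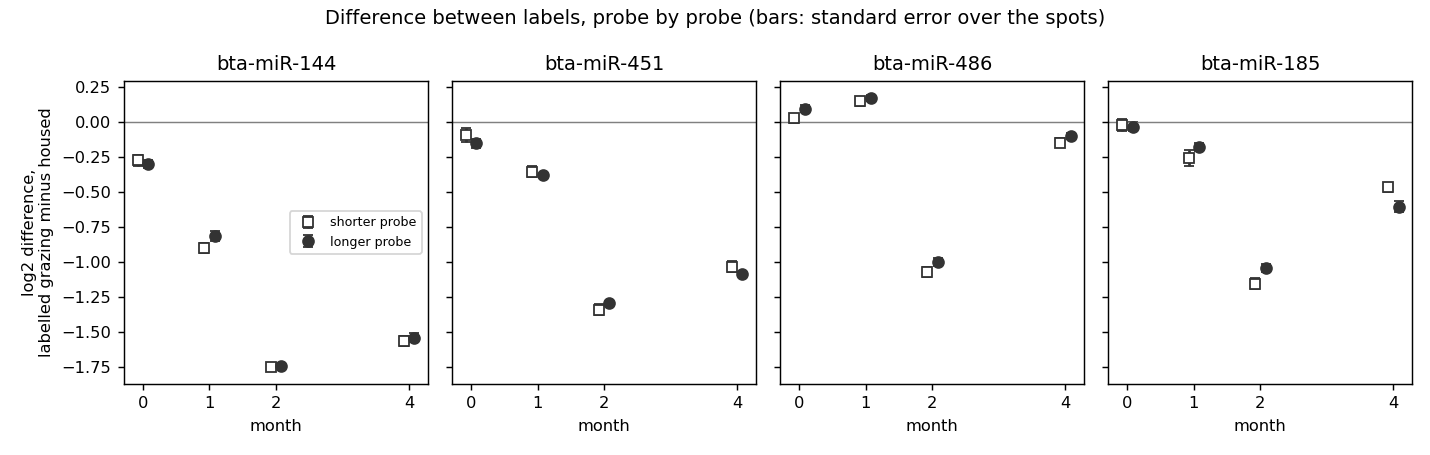
Log2 difference, labelled grazing minus labelled housed, by the shorter (open squares) and longer (filled circles) probe of each member against month; signals are scaled to the array's 90th percentile and bars are standard errors over up to 20 spots of a probe on both arrays. The symbols of a pair lie within 0.14 log2 units of each other at every month.

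The miRNAs most like each member were those with the lowest SD of the within-array log2 ratio over the 8 arrays. Closest to bta-miR-144 was bta-miR-451 (SD 0.23), before miR-126-5p and miR-193a-3p (0.36 each), while bta-miR-185 stood at rank 5 and bta-miR-486 at rank 25 of 142. Closest to bta-miR-451 were miR-126-5p (0.19), bta-miR-185 (0.19) and bta-miR-144 (0.23), with bta-miR-486 at rank 22. Closest to bta-miR-185 were miR-100 (0.15), miR-126-5p (0.16) and bta-miR-486 (0.17), and bta-miR-144 stood at rank 53. Closest to bta-miR-486 were bta-miR-185 (0.17), miR-25 (0.20) and miR-30a-5p (0.21), with bta-miR-451 at rank 20 and bta-miR-144 at rank 86. The median SD over the other 142 miRNAs was 0.76 for bta-miR-144, 0.58 for bta-miR-451, 0.50 for bta-miR-185 and 0.49 for bta-miR-486. All values come from the same 8 arrays and share their split by label. By Pearson's r of the scaled signals, bta-miR-144 and bta-miR-451 were each other's first (r 0.99), and bta-miR-25 was the first for bta-miR-486 (0.95), before bta-miR-185 (0.89). For bta-miR-185 this measure gave another order, with bta-miR-451 first (0.95), bta-miR-144 next (0.93) and bta-miR-486 at rank 11, so that its place between the pairs depends on the measure.

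Of 12 other miRNAs known from red cells, 8 were detected on all arrays, and miR-363, miR-96, miR-182 and miR-183 on none. By limma miR-16a, which represses cell-cycle genes, was lower labelled grazing at the later months (-0.67, SE 0.20, adjusted p 0.0456) and the other 7 did not pass, with 4.90% called lower in all. Of the 8, 7 had a difference below 0, the exception being miR-92a at 0.34, where 72 of all 143 were below 0. Their median was -0.26 against -0.0094 over the 143 and -0.77 over the 4 members. Such signs depend on the scaling, as the median of the 143 was 0.32 with let-7g as the reference and -0.85 without scaling. The differences of miR-16b, miR-15b, miR-106b, miR-93, miR-25 and miR-20a lay between -0.54 and -0.12. In the change from 0 mo the median of the 8 was -0.022 and 0 were called. miR-16a, whose mean changes were -0.038 labelled housed and 0.059 labelled grazing, did not have the course of bta-miR-144.

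The plasma could also carry miRNAs of platelets, white cells, liver or muscle. Among 4 measured miRNAs of platelets and endothelium, miR-126-5p, encoded in the endothelial gene EGFL7, was lower labelled grazing at the later months (-0.70, SE 0.20, adjusted p 0.0327), whereas miR-126-3p (-0.58), miR-222 (0.066) and miR-221 (0.42) did not pass, 2 of the 4 were below 0, and the median was -0.26. Among 5 measured leukocyte miRNAs, miR-150 of lymphocytes was higher (0.83, SE 0.20, adjusted p 0.0144), and the median was 0.42, opposite in sign to the members. The signs in these lists depend on the scaling, since the median of all 143 was -0.0094 as scaled here and -0.85 without scaling. Of the 143 miRNAs, 0 were called higher without scaling, with the summed signal or with normexp background correction. The detected platelet and endothelial miRNAs held 4.14% to 6.24% of an array's detected signal labelled housed and 2.68% to 3.06% labelled grazing, and the leukocyte miRNAs 2.36% to 3.42% and 1.85% to 4.60%. Their part in the members' result was not tested. Liver miR-192 differed by 0.11 (adjusted p 0.740) and miR-122 was detected on 5 arrays. Of the 7 muscle miRNAs listed 6 were detected on none of the arrays and miR-133b on 2, while bta-miR-486 was detected on all.

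The ratio of miR-451 to miR-23a, a miRNA that red cells hold little of, is used in human plasma to gauge the breakage of red cells. On the log2 scale it was 1.66, 1.75, 2.16 and 2.51 labelled housed at 0, 1, 2 and 4 mo and 1.92, 1.63, 0.92 and 1.59 labelled grazing, each with an error estimate of 0.18. It was highest on the array labelled housed 4 mo and lowest on that labelled grazing 2 mo, the same arrays as for bta-miR-451 itself, which is its numerator. miR-23a differed between the labels at the later months by -0.16 (SE 0.20, adjusted p 0.596). Red-cell RNA set free in sampling was not measured otherwise and its part was not tested. A smaller number of exosomes and less miRNA in each cannot be told apart here.

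Base composition and probe length both moved with the later-month difference. Over the 143 miRNAs, the G and C content of the longest probe and the difference had a Spearman's rho of 0.47 and a Pearson's r of 0.47, as a description across miRNAs of the same arrays. For the length of that probe rho was -0.49. The members stood in the same order by the difference, by G and C and by probe length (22, 19, 17 and 14 bases), from bta-miR-144 over bta-miR-451 and bta-miR-185 to bta-miR-486. Within 5 percentage points of G and C lay 11 other miRNAs for bta-miR-144, 22 for bta-miR-451, 43 for bta-miR-185 and 13 for bta-miR-486. Of these, 1 of 43 was as low as bta-miR-185 and 0 of 13 as low as bta-miR-486. The count for bta-miR-486 depends on where the window ends, since a lower value, -0.43 at 76.9% G and C, lay just outside it. For bta-miR-144 and bta-miR-451, the lowest and the third from the lowest of the 143, such a count is largely set by their rank and is not read. The medians of these neighbours were -0.16, -0.13, -0.10 and 0.38 in the same order. In the change from 0 mo rho was -0.14 for G and C and 0.12 for length. The part of base composition and of length in the order of the members was not tested.

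**Figure D5:**
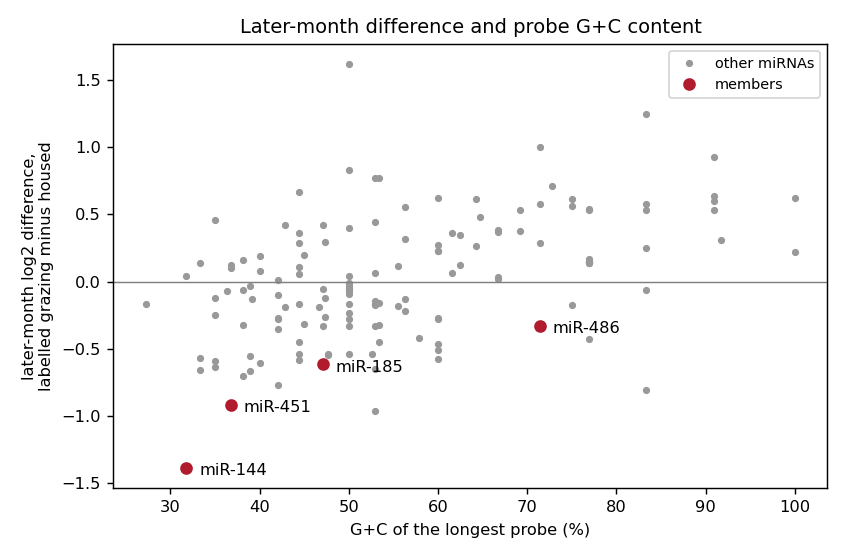
Later-month log2 difference, labelled grazing minus labelled housed, against the G and C content of the longest probe in percent, for the 143 tested miRNAs (grey) and the members (red). The members lie along the lower edge of a cloud that rises from left to right.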

How the data were processed

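The authors hybridized pooled plasma exosomal RNA of 3 steers per label and month to 8 one-colour Agilent arrays and quantified them with Feature Extraction 10.7.3.1, per the labels. The deposited intensity values are background-subtracted and not normalized between arrays. The authors' series table holds a ratio, each signal over 1 factor per array, and is linear and not centred. It served as an alternative. The column medians were between 0.000664 and 0.00257. Of its 743 entries 730 were matched by name.

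Total signals were divided by the array's 90th percentile over 744 miRNAs and taken to log2 above a floor of 0.114. Differences were tested with limma 3.58.1 (R 4.3.3) on 143 miRNAs with Benjamini-Hochberg adjustment at 0.05. The fits were tested on simulated data. With 20 of 143 miRNAs changed by 2 log2 units (more than any later-month difference measured) and a noise SD of 0.2, both fits recovered 100%, with 1 false call for the later months and 2 for the change from 0 mo. The simulated noise was independent and no shift was shared by a label. Recovery of smaller differences and false calls from such shifts were thus not examined. Probe values are means over spots not marked as outliers. No array was repeated, so the number of arrays limits the precision. The members, lists, tests and alternatives were chosen with earlier results of these data known, and no pattern is independent support for another. The miRNAs named are the members, the 3 most like each, the listed miRNAs and let-7g. RefSeq gene names are those of ARS-UCD2.0. Mature miRNA sequences were not used here. Other numbers come from scipy 1.17.1, pandas 2.3.3 and numpy 2.4.6 under Python 3.11.15.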

Additional observations from a re-analysis of the deposited data

Results flagged for a closer look

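The within-array log2 ratio of miR-144 over another member lay on opposite sides of its 0 mo value under the deposited labels. The mean change from 0 mo labelled grazing minus that labelled housed was -0.70 over miR-486, -0.51 over miR-185 and -0.33 over miR-451. All later arrays labelled housed were above their 0 mo array and all labelled grazing below theirs. The difference was not tested. Each pattern includes changes smaller than the error estimate of a single change. These were 0.10 at 2 mo labelled housed and -0.14 at 1 mo labelled grazing over miR-486 (error up to 0.22), 0.099 and -0.021 over miR-185 (up to 0.24), and all those labelled grazing over miR-451 (up to 0.26). By probe the pattern was present in 4 of 4 pairings over miR-486, 2 of 4 over miR-185 and 1 of 4 over miR-451.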

How the results depend on the processing

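The labels share month numbers, and the later-month fit has the month as a block. The number of miRNAs called in it, 16, was 10 with no month block, 0 with quantile normalization, without the 4 mo arrays, with detection on at least 4 arrays and with all 744 miRNAs, and 1 and 2 without the 1 and 2 mo arrays. It was 3 without scaling and with the summed signal, 5 with the 75th percentile, 8 with mean spot signals and with the series table, 29 with the percentile over miRNAs detected on all arrays, 32 with a trend, 33 with let-7g and 38 with the 0 mo arrays added. Of those calls 43.8% were lower, against 6.06% with let-7g and 100% with normexp, without scaling and with the summed signal. The count for the change from 0 mo, 2, was 0 under every alternative except the trend and 567 with all 744 miRNAs, of which 513 were undetected and constant, so that this count is void. miR-144 stayed below 0 in the later-month difference in 18 of 18 alternatives and was called in 13. miR-451 did so in 18 and was called in 10, and miR-185 in 18 and 2. miR-486 was called in 0 and reached 0.022 without the 2 mo arrays, and its difference in change was 0.18 without scaling. The ratio of miR-144 over miR-451 differed between the labels by -0.060 with quantile normalization and -0.020 with normexp, against -0.38, and that of miR-486 over miR-185 by -0.039 with normexp, against 0.24. The causes were not tested. All spots of the members' probes were well above background, but the ratios moved with its correction.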
